A study of Mus musculus with 16 samples.

Results

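The collagen hydroxylases and chaperones described here are 9 mouse genes of the 34650 gene names on the array: P4ha1, P4ha2, P4ha3, P4hb, Plod1, Plod2, Plod3, Crtap and Serpinh1. They were read by 13 of the 55681 non-control probes of a one-colour (Cy3) microarray, chosen by the gene name that the scanner files give for each probe. Of these probes, 12 were detected, which here means that all 4 arrays of 1 group or more called them well above background, and every gene had at least 1 detected probe. The third Plod1 probe, designed on another Plod1 transcript, was well above background on 0 of 16 arrays and is not followed further. The cells were primary lung fibroblasts of the mouse, grown through at least 3 passages and harvested 48 hours after transfection with a small interfering RNA (siRNA). The control group (scr) received a scrambled siRNA. In siLox the target was Lox, in siLoxL1 it was Loxl1 and in siLoxL2 it was Loxl2, all of them genes of lysyl oxidases, which cross-link collagen and elastin outside the cell. Each group had 4 arrays. The sources used here give no strain, sex or age of the mice and no sequence of any siRNA, and they do not say whether replicates were separate cultures, so that p-values measure only the spread between these samples.

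Collagen chains are modified in the endoplasmic reticulum before they fold into a triple helix. Prolyl 4-hydroxylase hydroxylates proline residues, which stabilises the helix, and it consists of a catalytic alpha subunit (encoded by P4ha1, P4ha2 or P4ha3) and a beta subunit, the protein disulfide isomerase encoded by P4hb. The lysyl hydroxylases encoded by Plod1, Plod2 and Plod3 modify lysine residues. Plod1 acts mainly on lysines of the helix and Plod2 on those of the telopeptides, the residues that lysyl oxidases later use for cross-links, while the Plod3 product also adds sugars to hydroxylysine. Crtap is part of the prolyl 3-hydroxylation complex, and Serpinh1 encodes HSP47, a chaperone that binds the folded procollagen helix. P4ha1, P4ha2 and Plod2 are textbook targets of hypoxia-inducible factors, whose binding sites hold the core ACGTG or GCGTG.

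Positions of probes were taken as printed by the scanner software, on build mm9, and no mm9 gene annotation was used, so that exon and UTR placement is not given. P4ha1, Plod1 and P4ha3 each have a pair of detected probes whose calls differ in at least 1 comparison. Shown are the 4 probe sequences of Plod1 and P4ha3, whose calls in siLox depend on the probe, as does that of P4ha1. The Plod1 probes gave like estimates in each comparison, whereas those of P4ha3 disagreed between slides. The brighter Plod1 probe (A_51_P320304) maps to the minus strand at chr4:147290037-147291457, a span of 1421 bases for 60 probe bases, so it is not contiguous in the genome. The other Plod1 probe (A_55_P2169784) maps to the minus strand at chr4:147302568-147302627. The P4ha3 probes map to the plus strand at chr7:107463120-107463179 (A_55_P2003033) and chr7:107467431-107467490 (A_55_P2003034). No base is capitalised because no part of a probe was singled out.
Plod1 A_51_P320304: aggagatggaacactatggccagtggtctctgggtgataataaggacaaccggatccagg
Plod1 A_55_P2169784: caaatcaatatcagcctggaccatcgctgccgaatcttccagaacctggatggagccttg
P4ha3 A_55_P2003033: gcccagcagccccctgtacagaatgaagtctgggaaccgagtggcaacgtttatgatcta
P4ha3 A_55_P2003034: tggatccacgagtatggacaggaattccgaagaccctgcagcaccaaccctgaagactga
The remaining probes lie at chr10:58835625-58835684 and chr10:58835012-58835071 (P4ha1, plus strand), chr11:53945032-53945091 (P4ha2, plus), chr11:120422076-120422135 (P4hb, minus), chr9:92502483-92502542 (Plod2, plus), chr5:137472079-137472138 (Plod3, plus), chr9:114284459-114284518 (Crtap, minus) and chr7:106493971-106494030 (Serpinh1, minus).

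The region before the start of each gene was read from RefSeq (GRCm38.p6) because several members moved together in the comparisons below. Of the 9 genes, 8 had an entry, and Plod2 had none. In the 250 bases before the start, ACGTG was found on either strand in 5 of 8 (P4ha1, P4ha2, P4hb, Plod3 and Serpinh1), against 16.6% of 32851 promoters of the same length. GCGTG, which can share no more than an end base with ACGTG, was found in 6 of 8 against 28.2%, and CCAAT in 2 of 8 against 33.8%. The motif lay 16 bases before the start in P4ha1, 78 in P4ha2, 56 in P4hb, 54 in Plod3 and 171 in Serpinh1. A match says only that these letters are there, and the comparison was not matched for base composition. The windows of P4ha1, P4ha2 and P4hb are shown because these genes encode the subunits of one enzyme, and that of Serpinh1 because it holds the motif and differed from them between slides. Capitals mark ACGTG, or CACGT where the match is on the opposite strand. They lie at chr10:59323046-59323295 (P4ha1, plus strand), chr11:54100674-54100923 (P4ha2, plus), chr11:120573254-120573503 (P4hb, minus) and chr7:99353240-99353489 (Serpinh1, minus).
P4ha1: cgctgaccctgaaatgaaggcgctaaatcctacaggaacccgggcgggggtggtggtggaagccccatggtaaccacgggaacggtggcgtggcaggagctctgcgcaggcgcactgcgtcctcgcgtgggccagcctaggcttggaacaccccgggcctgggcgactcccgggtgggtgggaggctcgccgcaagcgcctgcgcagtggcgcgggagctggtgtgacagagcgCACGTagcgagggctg
P4ha2: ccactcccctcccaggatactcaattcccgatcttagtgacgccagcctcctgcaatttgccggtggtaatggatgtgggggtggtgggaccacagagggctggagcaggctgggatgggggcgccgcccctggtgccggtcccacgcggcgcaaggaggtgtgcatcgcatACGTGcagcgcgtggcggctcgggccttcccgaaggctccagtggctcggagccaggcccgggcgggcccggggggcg
P4hb: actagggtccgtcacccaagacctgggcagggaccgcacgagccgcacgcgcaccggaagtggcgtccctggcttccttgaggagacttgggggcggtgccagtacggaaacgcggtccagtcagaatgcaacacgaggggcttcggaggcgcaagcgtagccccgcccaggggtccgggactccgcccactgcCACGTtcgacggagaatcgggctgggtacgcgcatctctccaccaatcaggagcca
Serpinh1: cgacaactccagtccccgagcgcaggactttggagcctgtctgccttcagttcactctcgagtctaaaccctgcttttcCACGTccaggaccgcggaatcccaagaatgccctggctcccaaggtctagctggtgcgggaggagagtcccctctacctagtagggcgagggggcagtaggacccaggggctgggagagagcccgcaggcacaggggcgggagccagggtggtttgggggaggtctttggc

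A level below is the log2 signal minus the 75th percentile of its array, so a level below 0 is under that percentile and not under background. A probe's level is compared between arrays only and never with another probe's level. Slide 1 held scr and siLox, one per row, and slide 2 held siLoxL1 and siLoxL2 in the same way. Comparisons within a slide are siLox with scr and siLoxL1 with siLoxL2, whereas for siLoxL1 or siLoxL2 against scr, group and slide cannot be told apart. Within a slide, group and row cannot be told apart either, and an array's replicate number is also its column on the slide. The share of spots well above background was 49.25% to 52.26% on slide 1 and 60.43% to 63.07% on slide 2, and the number of arrays limits the precision. Lox lay at 3.88 to 4.16 in scr and 0.39 to 2.04 in siLox, where Loxl1 lay at 4.89 to 5.38 and Loxl2 at 5.51 to 6.03. Loxl1 lay at 5.35 to 5.79 in scr, 4.54 to 4.72 in siLoxL1 and 5.65 to 5.80 in siLoxL2, and Loxl2 at 6.09 to 6.80 in scr, 5.59 to 5.81 in siLoxL1 and 5.25 to 5.58 in siLoxL2. Of the fibroblast markers, 9 of 9 were detected, with a summed linear level of 1097 to 1178 in scr, 765 to 1034 in siLox, 793 to 1137 in siLoxL1 and 1044 to 1108 in siLoxL2. Of the 9 epithelial markers, Cdh1, Epcam, Nkx2-1, Sftpb and Sftpc were above background on no array. The other 4, Krt18, Krt8, Aqp5 and Scgb1a1, were detected. So were all markers of the leukocyte and macrophage (11 of 11), endothelial (7 of 7) and mesothelial lists (5 of 5). The markers therefore do not show that the cultures held fibroblasts alone.

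**Figure D1:**
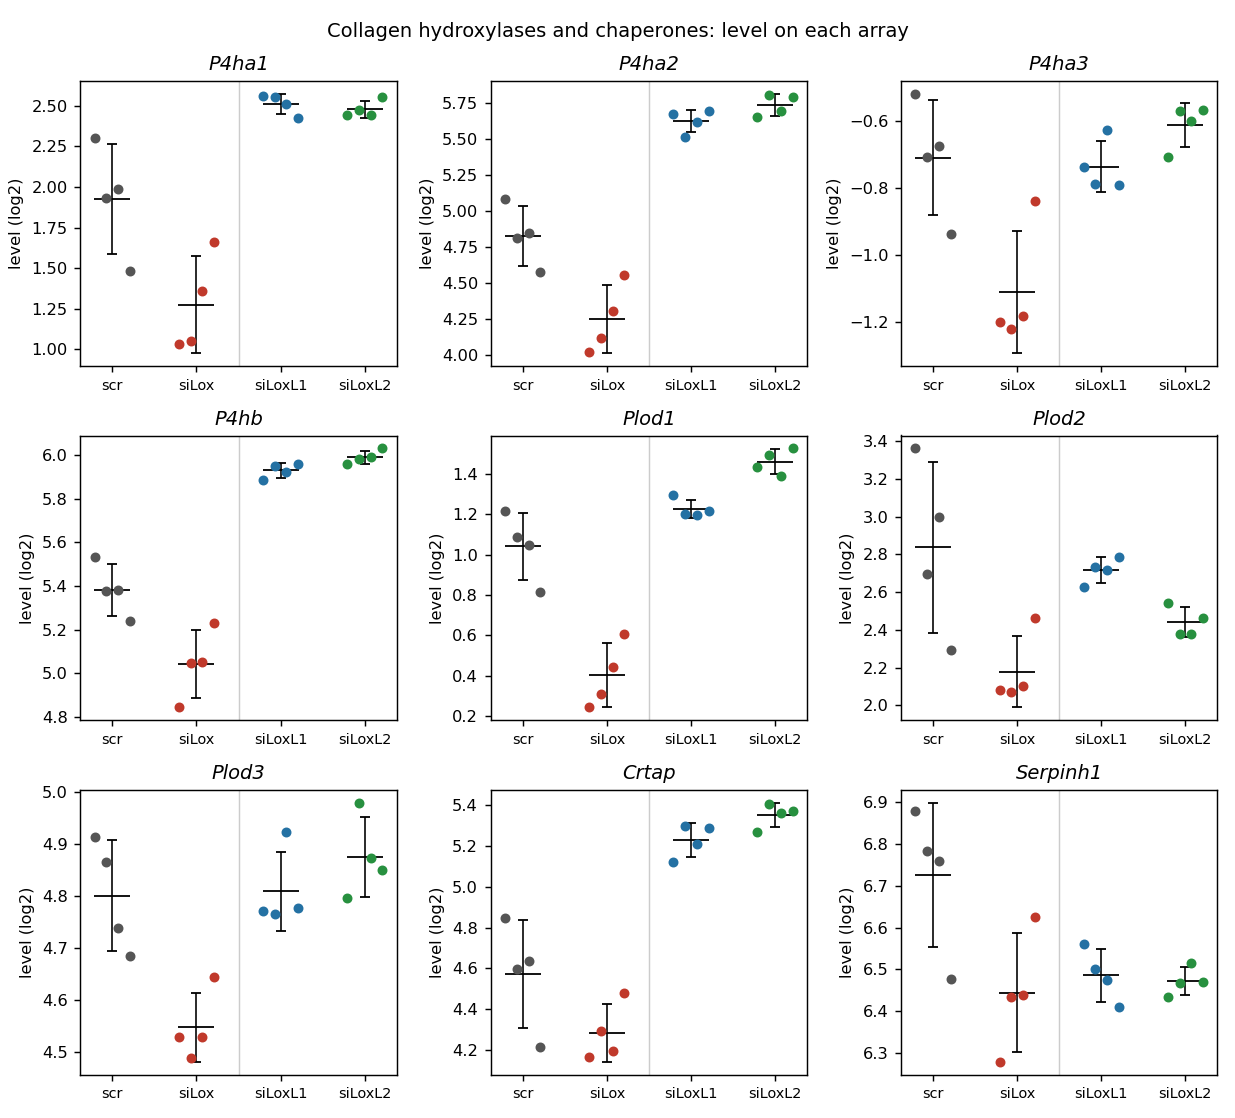
Level of each gene's brightest detected probe on each of the 16 arrays, as log2 signal relative to the array's 75th percentile, with the mean and SD of the 4 arrays of a group; points run from replicate 1 to 4 and the grey line parts slide 1 from slide 2. In every panel scr replicate 4 is the lowest scr array and siLox replicate 4 the highest siLox array, and the slide 2 arrays lie close together.

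In siLox, 4 of the 9 genes were lower than in scr and 0 were higher: P4ha2, P4hb, Plod1 and Plod3 fell to between 64.1% and 83.9% of the scr level (limma adjusted p under 0.05, 4 arrays per group). Across all tested probes, 21.1% passed in this comparison, 11.5% lower and 9.68% higher, and the ranges of the 4 and 4 arrays did not overlap for 15.9% (lower) and 12.8% (higher), against 4 and 0 of the 9 genes. All 9 estimates lay below 0, with a median of −0.40 on the log2 scale against −0.05 over all 32435 probes. The calls depended on single arrays. Without scr replicate 4, all 9 genes passed as lower, and without siLox replicate 4, 6 did. Leaving out any other array of the 2 groups left 1, Plod1. The share of all probes that passed moved as well. It was 30.6% without scr replicate 4, 19.4% without siLox replicate 4 and 5.42% to 12.4% without any other array.

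The catalytic subunit gene P4ha1 stood at 2.30, 1.93, 1.99 and 1.48 on the scr arrays (replicates 1 to 4 in order, as in all values below) and at 1.03, 1.05, 1.36 and 1.66 on the siLox arrays. The groups overlapped because siLox replicate 4 lay above scr replicate 4, and the difference of −0.65 ± 0.20 (SE; 63.7% of scr) did not pass (limma adjusted p = 0.0579). The second P4ha1 probe read −0.18, −0.52, −0.55 and −0.78 in scr and −1.58, −1.22, −1.15 and −0.83 in siLox. Here the groups did not overlap, and the difference of −0.69 ± 0.18 passed (limma adjusted p = 0.0357), so that the 2 probes gave like estimates on either side of the threshold. P4ha2, which encodes the second catalytic subunit, read 5.08, 4.81, 4.85 and 4.58 in scr and 4.02, 4.12, 4.31 and 4.56 in siLox. Every siLox array lay below every scr array, replicates 4 by a narrow margin, and P4ha2 fell by 0.58 ± 0.15 (66.9% of scr, limma adjusted p = 0.0329).

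P4ha3, the third catalytic subunit gene, was read by both probes whose sequences are given above. A_55_P2003033 read −0.52, −0.71, −0.68 and −0.94 in scr and −1.20, −1.22, −1.18 and −0.84 in siLox. Only siLox replicate 4 reached into the scr range, and the difference was −0.40 ± 0.12 (limma adjusted p = 0.0509). A_55_P2003034 read −0.14, −0.50, −0.44 and −0.69 in scr and −1.17, −1.27, −1.01 and −0.75 in siLox, a fall by 0.61 ± 0.15 with no overlap (limma adjusted p = 0.0304). P4hb, the beta subunit that all 3 catalytic subunits pair with, read 5.53, 5.38, 5.38 and 5.24 in scr and 4.84, 5.05, 5.05 and 5.23 in siLox. The groups were parted by the replicates 4 alone, at 5.24 and 5.23, and P4hb fell by 0.34 ± 0.10 (79.0% of scr, limma adjusted p = 0.0486).

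Among the lysyl hydroxylase genes, Plod1 was the one whose call stayed in each of the fits that left out 1 array. It read 1.22, 1.09, 1.05 and 0.81 in scr and 0.25, 0.31, 0.44 and 0.60 in siLox at the brighter probe. The lowest scr array was above the highest siLox array, and Plod1 fell by 0.64 ± 0.11 (64.1% of scr, limma adjusted p = 0.0141). Plod1 did not pass with the replicate number as a block (limma adjusted p = 0.103), where 0 of all probes did. Its other detected probe read −0.89, −1.36, −1.08 and −1.51 in scr and −2.24, −1.91, −1.85 and −1.33 in siLox. These ranges overlapped, and the estimate of −0.62 ± 0.21, near that of the brighter probe, did not pass (limma adjusted p = 0.0727).

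Plod2 varied most between the scr arrays, with levels of 3.36, 2.70, 3.00 and 2.29 (SD 0.45) against 2.08, 2.07, 2.10 and 2.46 in siLox (SD 0.19). Replicate 4 was again the array at which the groups met, and the difference of −0.66 ± 0.22 did not pass (limma adjusted p = 0.0695). Plod3 read 4.91, 4.86, 4.74 and 4.68 in scr and 4.53, 4.49, 4.53 and 4.64 in siLox. The ranges did not overlap, and Plod3 fell by 0.25 ± 0.07, to 83.9% of scr (limma adjusted p = 0.0470). The Plod3 call was lost after quantile normalization (limma adjusted p = 0.0542), in the authors' value table (0.0532) and with normexp (0.0656), and that of P4hb with quantile normalization (0.0532) and in the authors' table (0.0526). Without a filter on dim probes the calls of P4ha2, P4hb and Plod3 were all lost (limma adjusted p = 0.0693, 0.108 and 0.120). Some settings added calls. P4ha3 at A_55_P2003033 passed after quantile normalization (limma adjusted p = 0.0499) and in the authors' value table (0.0496). It also passed with normexp (0.0329) and with 1 probe per gene (0.0449). With normexp, P4ha1 (limma adjusted p = 0.027) and Plod2 (0.0350) passed as lower too.

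Neither of the other 2 members passed. Crtap read 4.85, 4.60, 4.64 and 4.21 in scr and 4.17, 4.29, 4.19 and 4.48 in siLox, a difference of −0.29 ± 0.14 (limma adjusted p = 0.169). Serpinh1, the collagen-specific chaperone, read 6.88, 6.78, 6.76 and 6.48 in scr and 6.28, 6.44, 6.44 and 6.63 in siLox, a difference of −0.28 ± 0.11 (limma adjusted p = 0.102). In both genes siLox replicate 4 lay above scr replicate 4, and the first 3 replicates of the groups did not overlap.

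The 9 genes shared one pattern over the replicates. In 9 of 9, scr replicate 4 was the lowest scr array, scr replicate 1 the highest and siLox replicate 4 the highest siLox array. Over all probes these shares were 33.0%, 34.9% and 30.4%, and among all probes called lower in siLox they were 72.2%, 72.8% and 61.4%. On replicate 4 alone the siLox level was above the scr level in 5 of 9 genes, against 46% of all probes and 6.72% of those called lower. Marker sums moved as well, and a linear sum is weighted towards the bright probes of its list. The endothelial list (7 of 7 detected) summed to 9.02 to 10.3 in scr and 5.49 to 8.18 in siLox. In it the mean of Flt1 was 2.18 in scr and 1.38 in siLox, whereas that of Vwf was −2.72 and −2.54. The mesothelial list (5 of 5) summed to 9.63 to 10.73 and 7.80 to 8.26. The leukocyte and macrophage list (11 of 11) summed to 23.6 to 28.5 and 25.3 to 30.1, and the epithelial list (4 of 9) to 4.98 to 7.30 and 5.50 to 6.04. Their part in the result was not tested. In RNA of whole cultures, a lower level per cell and fewer cells of a type cannot be told apart.

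**Figure D2:**
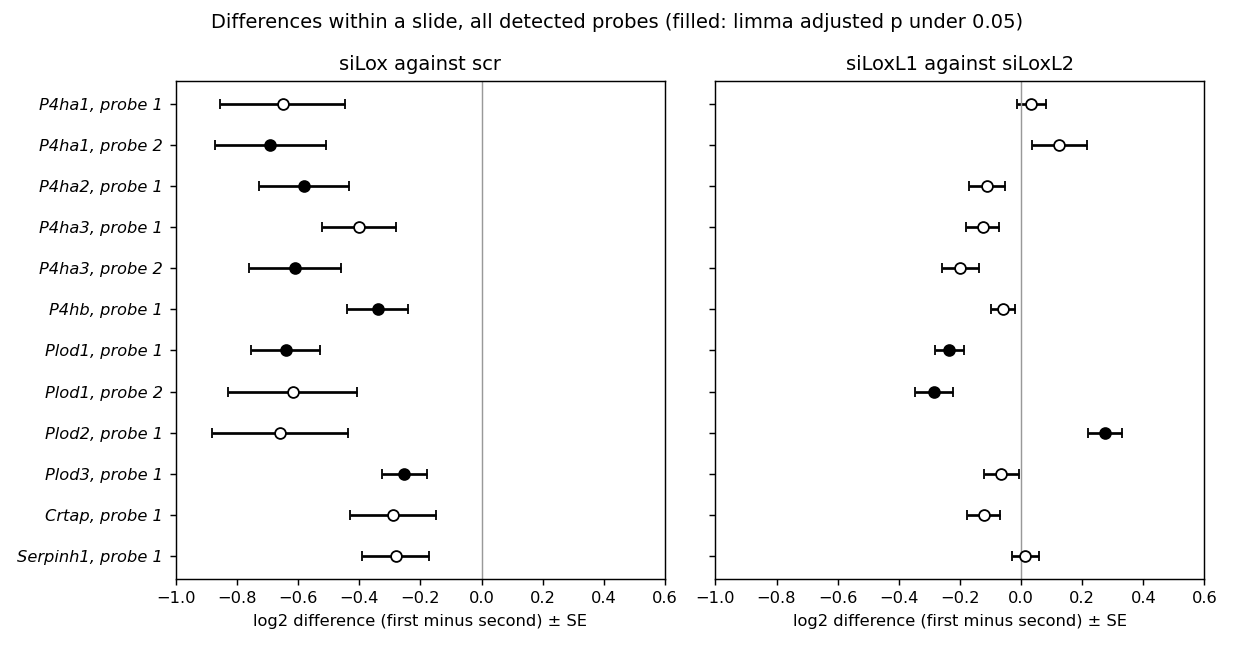
Log2 difference and its standard error for each of the 12 detected probes, siLox minus scr on the left and siLoxL1 minus siLoxL2 on the right (4 arrays per group); filled points passed the limma test. All siLox estimates lie below 0 with wide errors, and on slide 2 the filled points are both probes of Plod1 (−0.23 and −0.28) and that of Plod2 (0.28).

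Between siLoxL1 and siLoxL2, the lysyl hydroxylase genes Plod1 and Plod2 differed in opposite directions. Plod1 was lower and Plod2 higher in siLoxL1, and the other 7 genes did not pass, where 6.73% of all probes passed, 2.32% lower and 4.41% higher. The ranges did not overlap for 1 gene in each direction, against 5.72% of all probes lower and 13.2% higher. The median difference of the 9 genes was −0.07, against 0.03 over all probes. The spread within a group was small on this slide: the median SD over the 9 genes was 0.0676 in siLoxL1 and 0.0618 in siLoxL2, against 0.173 in scr and 0.159 in siLox.

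Plod1 read 1.29, 1.20, 1.20 and 1.22 in siLoxL1 and 1.44, 1.50, 1.39 and 1.53 in siLoxL2. The groups did not overlap, and Plod1 was lower in siLoxL1 by 0.23 ± 0.05 on the log2 scale, at 85.0% of the siLoxL2 level (limma adjusted p = 0.0306; log2 difference −0.23). The other Plod1 probe read −1.01, −0.97, −1.06 and −1.03 in siLoxL1 and −0.85, −0.69, −0.79 and −0.60 in siLoxL2. It too was without overlap and passed, with a difference of −0.28 ± 0.06 (limma adjusted p = 0.0363). Plod2 read 2.62, 2.73, 2.72 and 2.79 in siLoxL1 and 2.54, 2.38, 2.38 and 2.46 in siLoxL2. Each siLoxL1 array lay above each siLoxL2 array, and the difference was 0.28 ± 0.06, or 121% of the siLoxL2 level (limma adjusted p = 0.0316). Leaving out 1 array ended both calls in 6 of 8 cases. It ended that of Plod1 alone without siLoxL2 replicate 1 (limma adjusted p = 0.0525), and neither without siLoxL1 replicate 1. Of all probes, 1.75% to 4.07% passed on leaving out 1 array, against 6.73% with all arrays of the 2 groups. Quantile normalization ended the call of Plod2 (limma adjusted p = 0.0507), as did the authors' value table (0.0511). The fit of all 16 arrays ended both calls (limma adjusted p = 0.187 for Plod1 and 0.480 for Plod2). So did testing without a filter on dim probes (0.0926 and 0.0938) and with the replicate number as a block (0.0750 and 0.0847).

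Plod3, the remaining lysyl hydroxylase gene, read 4.77, 4.77, 4.92 and 4.78 in siLoxL1 and 4.80, 4.98, 4.87 and 4.85 in siLoxL2, with overlapping groups (−0.07 ± 0.06, limma adjusted p = 0.516). P4ha1 read 2.56, 2.55, 2.51 and 2.43 against 2.45, 2.47, 2.44 and 2.55 (0.03 ± 0.05, limma adjusted p = 0.699). P4ha2 read 5.68, 5.52, 5.62 and 5.69 against 5.65, 5.81, 5.70 and 5.80 (−0.11 ± 0.06, limma adjusted p = 0.269). The groups overlapped in both catalytic subunit genes. For P4ha3 the difference was −0.13 ± 0.06 at A_55_P2003033 (limma adjusted p = 0.199) and −0.20 ± 0.06 at A_55_P2003034 (limma adjusted p = 0.0856). P4hb read 5.89, 5.95, 5.92 and 5.96 in siLoxL1 and 5.96, 5.98, 5.99 and 6.03 in siLoxL2, meeting only at 5.96 (−0.06 ± 0.04, limma adjusted p = 0.368).

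Crtap read 5.12, 5.30, 5.21 and 5.29 in siLoxL1 and 5.27, 5.41, 5.36 and 5.37 in siLoxL2 (−0.12 ± 0.05, limma adjusted p = 0.209). Serpinh1 read 6.56, 6.50, 6.47 and 6.41 against 6.43, 6.47, 6.52 and 6.47, a difference of 0.01 ± 0.05 (limma adjusted p = 0.869). A p above the threshold does not show that these genes were alike in both groups. Beside these values, the leukocyte and macrophage list summed to 33.5 to 36.1 in siLoxL1 and 36.9 to 39.9 in siLoxL2, while the epithelial (2.23 to 2.39 and 2.07 to 2.33), endothelial (9.004 to 9.70 and 9.17 to 9.94) and mesothelial sums (5 to 6.55 and 5.10 to 5.62) overlapped. Their part in the result was not tested.

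Ratios of paired genes within an array remove any factor that scales a whole array, and 10 ratios were compared in each of the 2 comparisons within a slide by an exact two-sided permutation test, with adjustment over the 20. None passed: 0 of 20 had an adjusted p under 0.05, the smallest being 0.114. The smallest p that 4 against 4 arrays can give is 0.0286. After adjustment over the 20, a ratio at this p can pass only if most of the 20 reach it too. That none passed was therefore nearly fixed by the number of arrays and does not show that ratios were alike. A ratio's own level depends on both probes, so only its difference between groups is read. The log2 ratio of Plod1 to Plod3 was −3.70, −3.78, −3.69 and −3.87 in scr and −4.28, −4.18, −4.08 and −4.04 in siLox. The groups did not overlap, with a difference of −0.39 (exact permutation p = 0.0286), so that Plod1 was lower relative to Plod3 on every siLox array, replicate 4 included. The ratio of P4ha2 to P4hb was −0.45, −0.56, −0.53 and −0.66 in scr and −0.82, −0.93, −0.75 and −0.67 in siLox, a difference of −0.24 at the same p (exact permutation test). P4ha2 to P4ha3 differed by −0.18 at the brighter P4ha3 probe, also without overlap (exact permutation p = 0.0286), and by 0.03 at the other P4ha3 probe.

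The ratio of Plod1 to Plod2 did not follow this in siLox, where it differed from scr by 0.02 (exact permutation p = 0.914). On slide 2 it was −1.33, −1.53, −1.52 and −1.57 in siLoxL1 and −1.11, −0.88, −0.99 and −0.94 in siLoxL2. The groups were apart by −0.51 (exact permutation p = 0.0286), the largest of the 20 differences. Plod2 to Plod3 was higher in siLoxL1 by 0.34 at the same p (exact permutation test). The ratio of P4ha1 to P4ha2 differed by −0.07 between siLox and scr and by 0.15 between siLoxL1 and siLoxL2, and that of Serpinh1 to Crtap by 0.01 and 0.14, all 4 with overlapping groups.

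**Figure D3:**
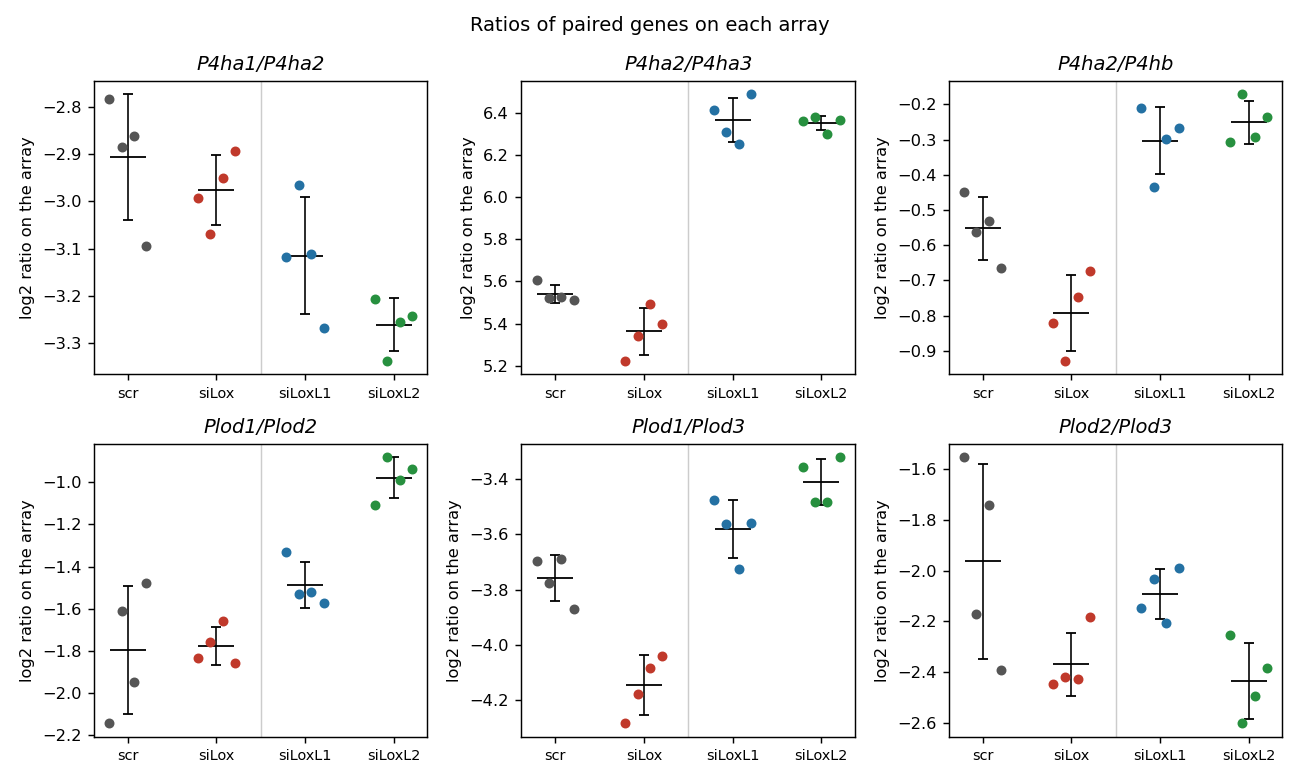
Log2 ratio of paired genes on each array, with mean and SD of the 4 arrays of a group; the grey line parts slide 1 from slide 2. Plod1/Plod3 is lower on every siLox array than on every scr array, and Plod1/Plod2 is lower on every siLoxL1 array than on every siLoxL2 array. None of the 20 differences passed after adjustment, which a single ratio of 4 against 4 arrays could not do alone.

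Other genes of collagen synthesis were read from 6 lists, whose counts stand beside the 11.5% of all probes that were lower in siLox and the 9.68% that were higher. In siLox, 6 of 12 collagen chains fell and 0 rose, with a median of −0.61. Col6a3, a chain of the beaded collagen VI, fell by 1.06 ± 0.19, Col6a1 by 0.91 ± 0.23, Col5a2 by 0.80 ± 0.21 and the basement membrane chain Col4a1 by 0.64 ± 0.12 (limma adjusted p = 0.0151, 0.0315, 0.0374 and 0.0161). Of 11 genes of collagen export from the endoplasmic reticulum, 6 fell and 0 rose (median −0.27). These include the coat subunits Sec23a (−0.60 ± 0.16) and Sec24d (−0.52 ± 0.13), Trappc2 (−0.46 ± 0.11) and Mia3 (−0.38 ± 0.09), which encodes the procollagen cargo receptor TANGO1.

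Of the 12 detected folding partners (of 13 on the array), 2 fell: Creb3l1, a transcription factor of collagen secretion, by 0.50 ± 0.13 and Ppib, the cyclophilin that works in the Crtap complex, by 0.40 ± 0.09 (limma adjusted p = 0.0355 and 0.0260). Of 10 disulfide isomerases and their oxidases, the family to which P4hb belongs, 4 fell and 0 rose (median −0.37): Pdia4 by 0.67 ± 0.13, Erp29 by 0.44 ± 0.11, Pdia6 by 0.44 ± 0.12 and Tmx1 by 0.34 ± 0.10. Of 9 other hydroxylases that use 2-oxoglutarate, as the prolyl and lysyl hydroxylases do, 1 fell, Egln1 (−0.40 ± 0.11), with a list median of −0.11, a count near the share of all probes. Of 14 targets of hypoxia-inducible factors, Pdk1 (−0.65 ± 0.18, with overlapping groups) and Adm (−0.24 ± 0.07) fell and Ndrg1 rose by 0.45 ± 0.11, with a median of −0.15 and counts again near those shares. The median of the 9 hydroxylase and chaperone genes, −0.40, lay between those of the collagen chains and the disulfide isomerases.

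Between siLoxL1 and siLoxL2, 2.32% of all probes were lower and 4.41% higher. Of 12 collagen chains, 2 were lower and 0 higher, and of 10 disulfide isomerases and oxidases, 1 and 0. Of 12 folding partners, 0 were lower and 1 higher, of 11 export genes 0 and 1, and of 14 hypoxia-inducible factor targets 0 and 2. Pdia4 was lower in siLoxL1 (−0.73 ± 0.10, limma adjusted p = 0.0104), as were the collagen VI chains Col6a1 (−0.29 ± 0.04) and Col6a2 (−0.21 ± 0.04). P3h4, which encodes a partner of Plod1 in a lysyl hydroxylation complex, was higher in siLoxL1 (0.19 ± 0.04, limma adjusted p = 0.0391), where Plod1 was lower. Klhl12 (0.22 ± 0.04), Hk2 (0.25 ± 0.05) and Slc2a1 (0.20 ± 0.05) were higher too. None of the 9 other hydroxylases passed, P4htm (−0.18 ± 0.07, limma adjusted p = 0.143) and Egln1 (−0.15 ± 0.08, limma adjusted p = 0.252) being the farthest from 0.

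**Figure D4:**
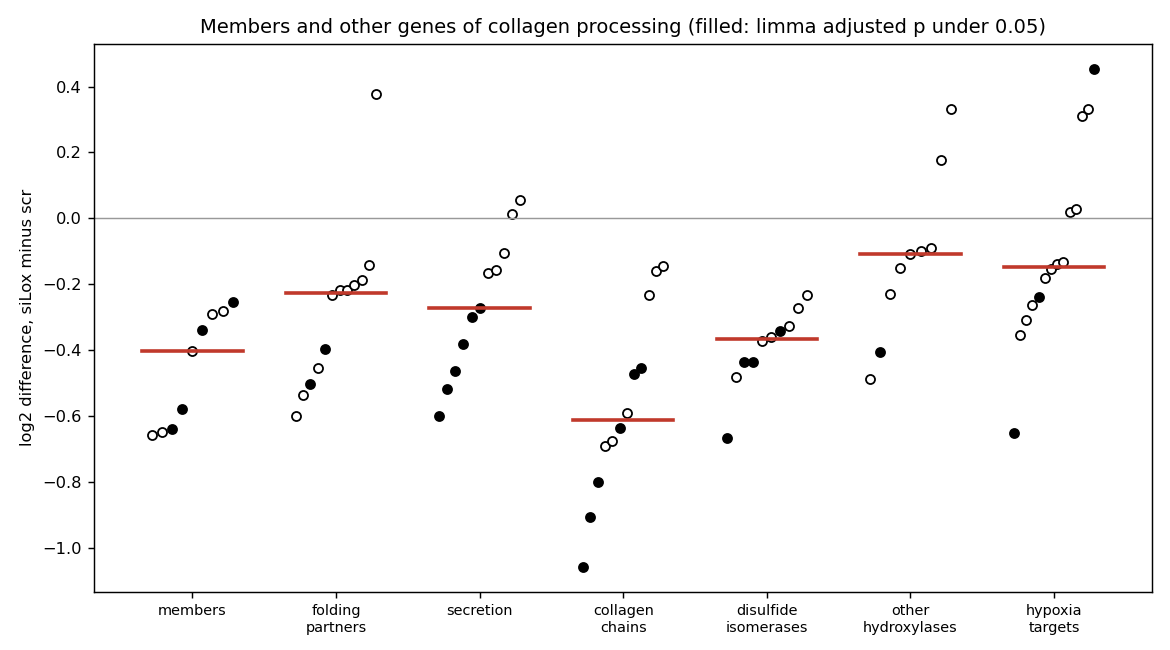
Log2 difference between siLox and scr for the 9 hydroxylase and chaperone genes and for the detected genes of 6 lists, one point per gene, with the list's median as a red line; filled points passed the limma test. Medians run from −0.61 for the collagen chains to −0.11 for the other hydroxylases, with −0.40 for the 9 genes.

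Against scr, a larger share of all probes passed in the slide 2 groups than in the comparisons within a slide. This cannot be told apart from the slide. Both slide 2 groups are set against the same scr arrays, also used for siLox, so their values are set side by side only. In siLoxL1, 4 of the 9 genes were higher and 0 lower, where 59.2% of all probes passed, 38.5% higher and 20.7% lower, and where ranges did not overlap for 36.3% (higher) and 19.3% (lower), against 4 and 0 of the 9. In siLoxL2, 5 were higher and 1 lower, against 36.7% and 21.7% (58.3% in all), and ranges did not overlap for 5 and 0 of the 9, against 34.8% and 20.1% of all probes. The median over all probes was itself shifted, by 0.18 in siLoxL1 and 0.16 in siLoxL2, and the median of the 9 genes was 0.19 and 0.42. That shift depended on the scaling: it was 0.08 and 0.06 after quantile normalization and −0.16 and −0.16 after normexp background correction, and the share of calls that were higher was 65.1% and 62.9% here, 55.0% and 53.0% after quantile normalization and 39.6% and 38.4% after normexp.

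Of the prolyl 4-hydroxylase subunits, P4ha2 differed by 0.80 ± 0.11 in siLoxL1 (174% of scr, limma adjusted p = 0.000409) and by 0.91 ± 0.11 in siLoxL2 (188%, limma adjusted p = 0.000224). P4hb differed by 0.55 ± 0.07 (146%, limma adjusted p = 0.000336) and 0.61 ± 0.07 (152%, limma adjusted p = 0.000211), and P4ha1 by 0.59 ± 0.16 (limma adjusted p = 0.0127) and 0.55 ± 0.16 (limma adjusted p = 0.0167). At these probes the slide 2 arrays did not overlap the scr arrays, whose levels are given above. Quantile normalization kept these calls at smaller values, with P4ha2 at 0.52 in siLoxL1 and P4hb at 0.25 in siLoxL1 and 0.36 in siLoxL2. The second P4ha1 probe did not pass, at 0.26 ± 0.14 and 0.13 ± 0.12 (limma adjusted p = 0.153 and 0.366).

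The P4ha3 probes disagreed here. A_55_P2003033 read −0.74, −0.79, −0.63 and −0.79 in siLoxL1 and −0.71, −0.57, −0.60 and −0.57 in siLoxL2, within the scr range (−0.03 ± 0.09 and 0.10 ± 0.09). A_55_P2003034 read −1.03, −1.05, −1.01 and −0.90 in siLoxL1 and −0.73, −0.93, −0.74 and −0.80 in siLoxL2, below all scr arrays (−0.55 ± 0.11 and −0.36 ± 0.12, limma adjusted p = 0.00361 and 0.0311). The direction for P4ha3 between slides therefore depends on the probe.

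Crtap was higher in both groups, by 0.66 ± 0.13 in siLoxL1 (158% of scr, limma adjusted p = 0.00291) and by 0.78 ± 0.13 in siLoxL2 (172%, limma adjusted p = 0.00118), and its value in siLoxL1 was 0.39 after quantile normalization (limma adjusted p = 0.0356). The chaperone gene Serpinh1 went the other way, at −0.24 ± 0.09 in siLoxL1 (limma adjusted p = 0.0543) and −0.25 ± 0.09 in siLoxL2 (limma adjusted p = 0.0398), and the groups overlapped in both. The Serpinh1 call in siLoxL2 was lost on leaving out 7 of the 8 arrays, with scr replicate 4 the exception, and in siLoxL1 Serpinh1 passed as lower without scr replicate 4 (limma adjusted p = 0.00387). It also passed there in the fit of all 16 arrays (limma adjusted p = 0.0229), with one probe per gene (0.0494) and, at −0.57, after quantile normalization (0.00107) and in the authors' value table (0.00105).

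Plod1 differed by 0.19 ± 0.09 in siLoxL1 (limma adjusted p = 0.104) and was higher by 0.42 ± 0.09 in siLoxL2 (134% of scr, limma adjusted p = 0.00479), with 0.20 ± 0.13 and 0.48 ± 0.14 at its other probe. In siLoxL1 Plod1 passed as higher without scr replicate 1 (limma adjusted p = 0.0327). Plod2 did not pass in either group (−0.12 ± 0.20 and −0.40 ± 0.21, limma adjusted p = 0.631 and 0.132), and without scr replicate 4 it passed as lower in siLoxL2 (−0.58, limma adjusted p = 0.0149). Plod3 lay at 0.01 ± 0.07 and 0.07 ± 0.07, and in siLoxL1 its direction turned to lower after quantile normalization (−0.25, limma adjusted p = 0.0192). In siLoxL2 Plod3 stood at −0.12 after quantile normalization and passed as higher with normexp background correction (0.23, limma adjusted p = 0.0127).

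The order of the 4 groups differed between the genes. Means of P4ha2, P4hb and Crtap ran from siLoxL2 through siLoxL1 and scr to siLox, with siLoxL2 and siLoxL1 overlapping in each and, for Crtap, scr and siLox overlapping too. P4ha1 ran from siLoxL1 through siLoxL2 and scr to siLox, with overlap within each slide. Plod1 ran from siLoxL2 through siLoxL1 and scr to siLox, where only siLoxL1 and scr overlapped. Plod3 had the same order, with overlap between all neighbours but scr and siLox, and P4ha3 at its brighter probe ran from siLoxL2 through scr and siLoxL1 to siLox, where only siLoxL1 and siLox did not overlap. Plod2 and Serpinh1 were highest in scr and then ran through siLoxL1 and siLoxL2 to siLox. For Plod2 only siLoxL1 and siLoxL2 did not overlap, and for Serpinh1 all neighbours overlapped. With this scaling the siLox mean was the lowest of the 4 in each of the 9 genes. After quantile normalization it was not for Serpinh1, which differed from scr by −0.20 in siLox, −0.57 in siLoxL1 and −0.53 in siLoxL2, nor for Plod3 (−0.24, −0.25 and −0.12), and the authors' value table gave the same order.

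**Figure D5:**
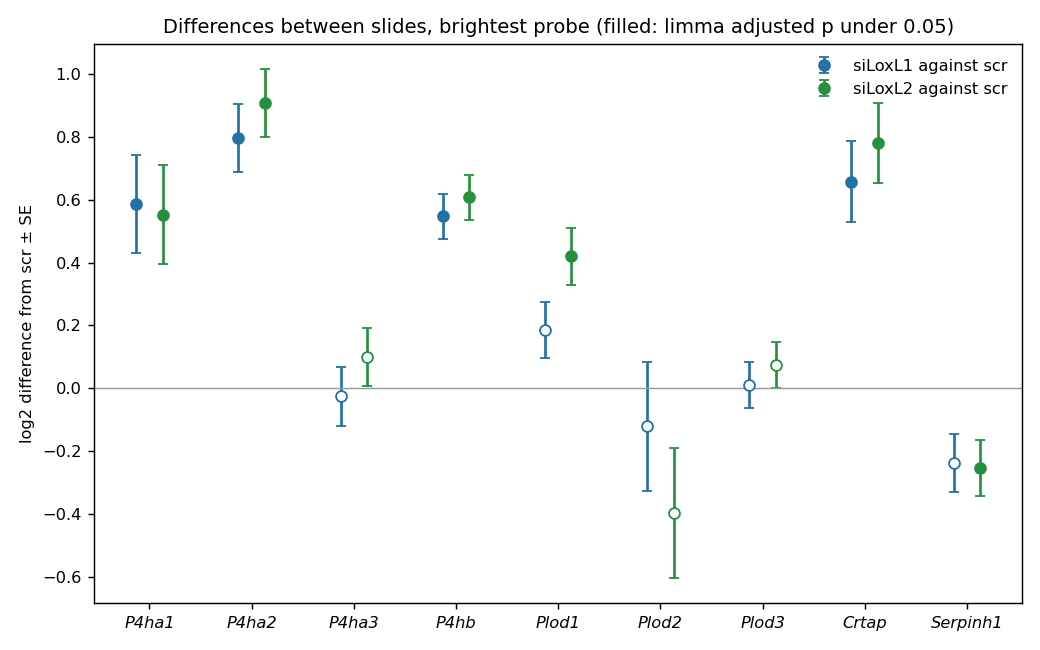
Log2 difference from scr and its standard error for each gene's brightest probe in siLoxL1 and siLoxL2 (4 arrays per group, scr shared); filled points passed the limma test. P4ha1, P4ha2, P4hb and Crtap lie between 0.55 and 0.91 and Serpinh1 below 0; group and slide cannot be told apart.

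The counts of the lists stand beside the 38.5% and 36.7% of all probes that were higher in siLoxL1 and siLoxL2, and the 20.7% and 21.7% that were lower. Of 14 hypoxia-inducible factor targets, 12 were higher and 0 lower than scr in siLoxL1 and likewise 12 and 0 in siLoxL2, with medians of 0.78 and 0.76. Car9, a carbonic anhydrase, differed by 1.98 ± 0.10 and 2.00 ± 0.10, Ankrd37 by 2.01 ± 0.07 and 1.80 ± 0.07, Bnip3 by 1.33 ± 0.11 and 1.25 ± 0.11 and the glucose transporter gene Slc2a1 by 1.26 ± 0.11 and 1.06 ± 0.10. Of the 3 members named above as targets of these factors, P4ha2 and the brighter P4ha1 probe were higher on slide 2. The second P4ha1 probe and Plod2 did not pass. A part of these factors was not tested, and group and slide cannot be told apart.

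Of 10 disulfide isomerases and oxidases, 5 were higher and 0 lower in each group, with Ero1b at 1.52 ± 0.13 and 1.76 ± 0.12, Pdia4 at 0.99 ± 0.13 and 1.72 ± 0.10, Ero1a at 0.86 ± 0.20 and 0.90 ± 0.20 and Pdia6 at 0.69 ± 0.09 and 0.75 ± 0.09. Of 12 folding partners, 5 were higher and 1 lower in siLoxL1 and 6 and 1 in siLoxL2. P3h1, the enzyme of the Crtap complex, was higher by 0.81 ± 0.09 and 0.87 ± 0.09, beside Crtap, while Creb3l1 was lower (−1.48 ± 0.14 and −1.31 ± 0.13). Fkbp14 was higher by 0.63 ± 0.13 and 0.47 ± 0.13, and Ppib by 0.54 ± 0.07 and 0.44 ± 0.08. Tmem38b was higher by 0.77 ± 0.24 in siLoxL2, and in siLoxL1 it stood at 0.35 ± 0.16 and did not pass (limma adjusted p = 0.0834). The other hydroxylases had 5 of 9 higher in each group and 0 and 1 lower, with Asph at 0.91 ± 0.13 and 0.95 ± 0.13, Phyh at 0.77 ± 0.09 and 0.83 ± 0.09, Egln3 at 0.72 ± 0.09 and 0.67 ± 0.09 and Egln1 at 0.56 ± 0.10 and 0.71 ± 0.11. Egln3 is also on the list of hypoxia-inducible factor targets and is counted in both lists.

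Of the 12 collagen chains 7 were lower and 1 higher in each group. Col6a3 differed by −2.17 ± 0.12 and −2.09 ± 0.12, Col3a1 by −1.001 ± 0.16 and −0.93 ± 0.15 and Col4a1 by −0.91 ± 0.07 and −0.88 ± 0.07, while Col12a1 was higher (0.83 ± 0.11 and 0.71 ± 0.11). Of 11 export genes, 4 were higher in each group, near the share of all probes, and 1 was lower, with Sar1a at 0.72 ± 0.05 and 0.64 ± 0.06, Lman1 at 0.62 ± 0.10 and 0.74 ± 0.08 and Sar1b at 0.48 ± 0.08 and 0.51 ± 0.06. Klhl12 was higher in both groups (0.55 ± 0.06 and 0.33 ± 0.05), and Sec24d was lower in both (−0.31 ± 0.12 and −0.36 ± 0.12). Marker sums differed between the slides in the same arrays. The epithelial list summed to at least 4.98 on slide 1 and at most 2.39 on slide 2. The mesothelial list summed to at least 7.80 and at most 6.55, and the leukocyte and macrophage list to at most 30.1 and at least 33.5. Members of a list did not all move alike. From scr to siLoxL1, the mean level went from 0.96 to −3.28 for Krt8 but from −2.77 to 0.77 for Aqp5. It went from 2.45 to 0.07 for Wt1 but from 1.12 to 1.78 for Msln. For Cd68 it went from 0.72 to 1.61 but for Ptprc from −3.76 to −4.14. The part of these sums in the result was not tested.

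For each member, the 2 other genes whose level followed it most closely were taken from 14399 named genes, as Pearson's r over the 16 arrays after each slide had been centred. These are descriptions, since all the genes share the arrays and slide 1 holds most of the spread. P4ha1 was followed most closely by Dhrs7 and Scd2 (r = 0.99 and 0.99), P4ha2 by Praf2 and Prss48 (0.98 and 0.98), P4ha3 by Mrgprf and Six5 (0.98 and 0.97) and P4hb by Anxa8 and Cd59a (0.99 and 0.98). Plod1 was followed by Angptl2 and Tecr (0.99 and 0.98), Plod2 by Kdsr and Lrrk2 (0.99 and 0.98) and Plod3 by Mamstr and Camsap3 (0.95 and 0.93). For Crtap they were Colgalt1 and Ntf5 (0.96 and 0.96), the former a glycosyltransferase of collagen, and for Serpinh1 Flot2 and Trp53inp2 (0.97 and 0.97).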

How the data were processed

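Total RNA of 16 samples, 4 each of scr, siLox, siLoxL1 and siLoxL2, was labelled with Cy3 and hybridised to one-colour Agilent arrays, per the labels. Groups and replicate numbers come from the sample titles. Per the file headers, the deposited scanner values are intensity values per spot, background-subtracted and detrended; Agilent Feature Extraction 10.7.3.1 is named in the submitters' processing notes. Other deposited columns used are flags of 0 or 1 per spot (well above background, outlier, saturated; 0 spots were saturated). The authors also deposited a table of log2 values; its sorted columns differ by at most 0.000965, its column medians are all near 4.84, its correlation with log2 scanner values over detected probes is 0.9993 to 1, and the labels do not say how it was made.

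From the scanner values, outlier spots were left out, spots of a probe averaged, and log2 values taken relative to each array's 75th percentile of non-control probes (8.67 to 9.03 on slide 1, 9.74 to 9.90 on slide 2). Of 32481 probes well above background on all 4 arrays of a group, 46 had no usable spot on an array, and 32435 were tested. Each comparison was fitted in R 4.3.3 by limma 3.58.1, using lmFit, contrasts.fit and eBayes, on the 8 arrays of its 2 groups, with Benjamini-Hochberg adjustment over all probes and a threshold of 0.05. A gene is called by its brightest detected probe. The fit was tested on simulated data. Ratios were tested by exact permutation. RefSeq tables (GRCm38.p6) named 28026 probes (50.3%); the others kept the file's name.

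The members and lists were chosen with earlier results of these data known. The text names all 9 members and all their probes, up to 4 genes per list and comparison that passed with the largest difference (2 where none passed), and the 2 nearest genes of each member. The lists are folding partners, export genes, collagen chains, disulfide isomerases, other 2-oxoglutarate hydroxylases and hypoxia-inducible factor targets, with markers of 5 cell types. Alternatives were another fit, one probe per gene, quantile normalization, the authors' table, normexp (offset 50), no filter, the replicate number as a block and leaving out arrays.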

Additional observations from a re-analysis of the deposited data

Results flagged for a closer look

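A sample far from the others of its group was looked for in 48 groups of 4 arrays (12 probes, 4 groups), and 3 were found; chance alone flags about 1 in 20 groups. Plod2 stood at 2.46 on siLox replicate 4, against 2.07 to 2.10 on the other siLox arrays. P4ha3 at A_55_P2003033 stood at −0.84 on the same array, against −1.22 to −1.18. Plod3 stood at 4.92 on siLoxL1 replicate 3, against 4.77 to 4.78 on the other siLoxL1 arrays.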

How the results depend on the processing

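For siLox against scr, 4 genes changed. The count was 9 in a fit of all 16 arrays and without replicate 4 of both groups. It was 1 with no filter on dim probes and 0 with a replicate block, and it ranged from 1 to 9 on leaving out single arrays. Of all probes, 39.6% passed in the fit of all 16 arrays, 30.1% without replicate 4 of both groups and 4.72% with no filter. On leaving out single arrays the share was 5.42% to 30.6%, and in the main fit 21.1%. Same-numbered arrays of siLox and scr correlated at −0.15 to −0.00 in their deviations from the group means, none of them positively. The labels do not say whether replicate numbers pair the samples, and so few arrays cannot decide it. With the block limma called 0 of 32435 probes. For siLoxL1 against siLoxL2, 2 genes changed; the count was 1 after quantile normalization and with the authors' value table, 0 in the fit of all 16 arrays, with no filter, with a replicate block (515 probes called; r = 0.04 to 0.20) and without replicate 4 of both groups, and it ranged from 0 to 2 on leaving out single arrays. Of all probes, 6.73% passed in the main fit of this comparison, 5.4% after quantile normalization and 3.18% in the fit of all 16 arrays. The share was 0.741% with no filter, 0.499% without replicate 4 of both groups and 1.75% to 4.07% on leaving out single arrays. Against scr the counts were 4 to 6 for siLoxL1 and 5 to 7 for siLoxL2 under every alternative. There 52.7% to 78.9% and 50.8% to 78.3% of all probes passed. Plod3 in siLoxL1 against scr changed sign with quantile normalization (−0.25, limma adjusted p = 0.0192) and with the authors' value table (−0.25, limma adjusted p = 0.0183). No ratio passed with the authors' table, with normexp or with the second probe, where a single ratio could not pass alone after adjustment. Leaving out an array leaves 4 against 3, which cannot reach an exact p under 0.0571. The cause of these shifts was not tested. All estimates of the 9 genes for siLox against scr stayed below 0 under the 16 alternatives. The share of calls that were higher between siLoxL1 and siLoxL2 was 65.5%, against 55.6% after quantile normalization and 41.7% with no filter.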
